A study of Homo sapiens with 4 samples.

Results

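Glycogen is the branched store of glucose that many cells keep in the cytoplasm. UGP2 makes UDP-glucose, the sugar donor, glycogenin (GYG1) starts the chain, glycogen synthase (GYS1) extends it and the branching enzyme (GBE1) adds branch points. Glycogen phosphorylase, which exists as liver (PYGL), brain (PYGB) and muscle (PYGM) isoforms, releases glucose 1-phosphate from the chain ends. PPP1R3B and PPP1R3C bring protein phosphatase 1 to the glycogen particle, where it switches the synthase on and the phosphorylase off by removing phosphate. These 9 genes were chosen by name, with earlier results of these data known. Each was found on the array, by 19 of the 49395 rows of the deposited values. They are 9 of 18132 genes measured.

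The cells were UM1, an established line of human tongue squamous cell carcinoma, and no other line was on the arrays. They were grown in DMEM with serum and antibiotics, with 5.6 mM glucose (normal glucose, called low glucose in the sample labels) or 16.7 mM glucose (high glucose) for 7 days, and no other treatment was named. Each group had 2 arrays, which the labels call biological replicates, so the p-values measure only the spread between these cultures. The method of testing, limma, combines the spread of each gene with that over all genes. Values are log2 levels from RMA, the method that corrects, normalises and summarises the probes of an array, and each gene was read by its brightest probe set, the group of probes that targets 1 transcript or gene.

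Of 10 squamous epithelial markers listed, 7 were analysed, since KRT6A, KRT17 and TP63 had no probe set of their own. Of the 7 analysed, 7 lay above the array median, 6 were higher and 1 was lower in high glucose. Their summed level (log2 of the sum of linear values) was 13.7 on both arrays in normal and 15.5 on both in high glucose. The summed level of 7 fibroblast markers was 6.57 to 6.82 in normal and 10.2 on both arrays in high glucose, with 3 higher, 0 lower and LUM and THY1 at or under the 25th percentile of every array. Of 7 skeletal muscle markers 3 were higher (summed level 7.51 to 7.71 in normal and 8.13 to 8.18 in high glucose) with MYOD1 and MYH2 at or under that percentile. Of 6 hepatocyte markers listed, 5 were analysed, without HNF4A, and 0 were called (6.54 to 6.55 and 6.46 to 6.47), with ALB and FGB at or under it. The fibroblast markers that rose were FAP (62.6-fold), COL1A1 (5.86-fold) and COL1A2 (1.95-fold). FAP alone was at 9.74 and 9.8 in high glucose, so it made up most of the summed level there. PDGFRB and DCN were not called (log2 differences -0.25 and 0.2). The muscle markers that rose were TNNT3 (1.70-fold), ACTA1 (1.61-fold) and MYOG (1.30-fold). DES and CKM were not called (log2 differences 0.61 and 0.17). Of the squamous markers, KRT14, KRT5, SFN, ITGB4, CDH3 and DSG3 rose, with log2 differences of 4.09, 3.97, 3.23, 1.96, 1.32 and 1.1. LAMB3 fell (log2 difference -1.22). By the same rule, an adjusted p under 0.05, 15.5% of all genes were higher and 22.2% lower. All these markers were named after their values were seen. Probe sets for the 2 ends of the beta-actin transcript measure RNA integrity, and the 3' end was brighter than the 5' end by log2 differences of 0.713 and 0.740 in normal and of 0.349 and 0.417 in high glucose. For GAPDH these differences were 0.240 and 0.135, and 0.0802 and 0.123. The part of the markers and of this difference in the results was not tested. In bulk RNA, fewer cells of a type and less RNA per cell cannot be told apart.

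High glucose was accompanied by a split of the glycogen genes. The synthase GYS1, the liver-type phosphorylase PYGL, the targeting subunits PPP1R3B and PPP1R3C and the UDP-glucose enzyme UGP2 were higher, and the branching enzyme GBE1, the brain-type phosphorylase PYGB and glycogenin GYG1 were lower. The muscle-type phosphorylase PYGM did not pass. Thus 5 of 9 genes were higher and 3 of 9 were lower when limma's p, adjusted over all genes by Benjamini-Hochberg, was required to be under 0.05, against 15.5% and 22.2% of all genes. Since the 9 genes were chosen with earlier results of these data known, comparisons of them with all genes are a description and no test of an excess. The arrays of the groups did not overlap for 8 of the 9 genes, as for 64.8% of all genes. The median difference of the 9 genes was 0.38 on the log2 scale and the median of its size without sign 0.857, against -0.03 and 0.227 over all genes. The thresholds of the methods were a ratio over 1.5 or less than 0.67, and p less than 0.05. They were applied here to limma's p before adjustment. At these thresholds GYS1, PYGL and PPP1R3B were higher and GBE1 and PYGB lower, 3 and 2 of 9, against 10.6% and 13.4% of all genes. PPP1R3C and GYG1, named among the calls above, lost them when single arrays were left out, as given with their values.

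**Figure D1:**
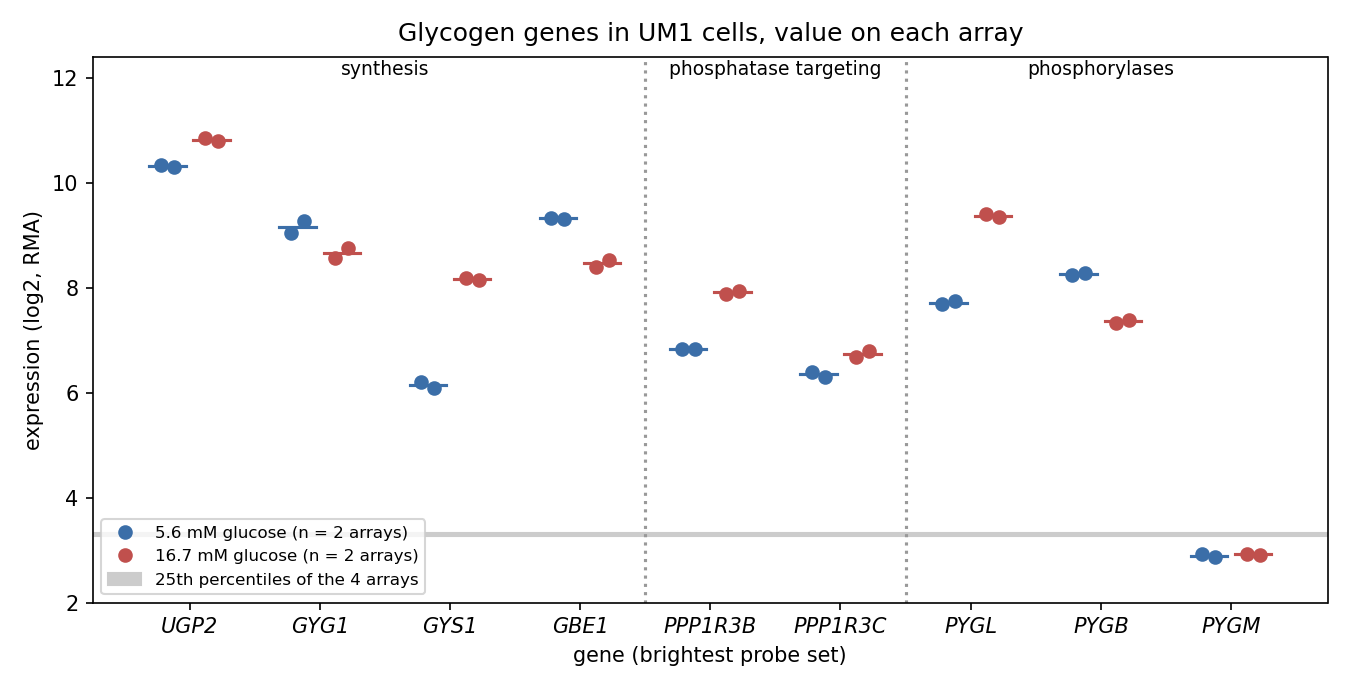
Expression (log2, RMA) of the 9 glycogen genes on each of the 4 arrays. Points are arrays, short lines are group means (n = 2) and the grey band spans the 25th percentiles of the arrays. The groups lie apart for 8 genes, and PYGM lies under the band on every array.

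The sequences before the transcription starts are shown for the 4 genes with the largest opposite changes, the synthase and the branching enzyme on the building side and the liver-type and brain-type phosphorylases on the breakdown side. They are the 250 bases before the start in the RefSeq promoter table (GRCh38.p14), which holds 8 windows for 7 of the 9 genes, all but PYGM and PPP1R3B. Capitals mark ACGTG and GCGTG, the core letters of hypoxia response elements, to which HIF-1 binds, on either strand (CACGT and CACGC read along the printed strand). The windows are those of GYS1 (chr19:48993310-48993559, minus strand), GBE1 (chr3:81761646-81761895, minus strand), PYGL (chr14:50944484-50944733, minus strand) and PYGB (chr20:25247835-25248084, plus strand).
GYS1: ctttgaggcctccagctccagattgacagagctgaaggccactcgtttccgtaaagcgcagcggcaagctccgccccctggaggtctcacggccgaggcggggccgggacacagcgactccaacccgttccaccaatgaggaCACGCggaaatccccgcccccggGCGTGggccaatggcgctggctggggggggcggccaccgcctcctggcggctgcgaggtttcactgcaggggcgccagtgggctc
GBE1: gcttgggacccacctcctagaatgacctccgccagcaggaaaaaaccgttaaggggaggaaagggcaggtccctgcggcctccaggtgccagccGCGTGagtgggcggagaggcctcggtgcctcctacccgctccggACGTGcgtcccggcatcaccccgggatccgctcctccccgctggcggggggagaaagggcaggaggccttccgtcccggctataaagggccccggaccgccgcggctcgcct
PYGL: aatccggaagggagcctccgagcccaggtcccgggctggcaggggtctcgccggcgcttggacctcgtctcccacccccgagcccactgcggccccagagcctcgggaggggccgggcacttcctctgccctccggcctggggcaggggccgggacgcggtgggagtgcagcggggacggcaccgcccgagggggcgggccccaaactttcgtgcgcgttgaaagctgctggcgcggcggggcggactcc
PYGB: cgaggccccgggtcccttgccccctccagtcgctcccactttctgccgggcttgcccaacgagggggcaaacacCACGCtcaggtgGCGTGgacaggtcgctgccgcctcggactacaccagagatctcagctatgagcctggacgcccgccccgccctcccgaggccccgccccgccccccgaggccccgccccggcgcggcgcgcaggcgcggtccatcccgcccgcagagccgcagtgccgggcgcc

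At least 1 of these cores was present in 7 of the 8 windows, against 43.2% of the 35116 windows in the table. The 8 windows held 67.2% to 77.2% G and C, above the median of 58.0% over all windows. The cores stood before genes that rose (GYS1, UGP2 and PPP1R3C) and before genes that fell (GBE1, PYGB and GYG1). The window of PYGL, which rose, held neither set of letters. The E-box CACGTG, a motif of MYC and related factors which also contains ACGTG on both strands, was present in 2 of the 8 windows, against 6.34% of all, 43 bases before the start of GYG1 (chr3:148991485-148991514, plus strand) and 45 bases before that of PPP1R3C (chr10:91633099-91633128, minus strand). These 30 bases are printed because the gene with the first window fell and the gene with the second rose. The calls of both genes were lost when single arrays were left out, as given with their values below. Capitals mark the E-box.
GYG1: agcgtgcgcggcCACGTGacggccgctata
PPP1R3C: cagggatcgggtCACGTGcttgggagcaga

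A match of these letters is a description of the window and not a site shown to be bound.

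Among the genes that build glycogen, GYS1 rose most. Its value was 6.20 and 6.10 on the arrays in normal glucose and 8.18 and 8.16 in high glucose. Both high glucose arrays lay far above both normal glucose arrays. The rise was 4.06-fold, or 2.02 on the log2 scale (SE 0.0868, 2 arrays a group, limma's adjusted p = 3.08e-05), the 428th largest of 18132 genes. Of all genes, 3.29% changed by at least as much in either direction. GYS1 was read by 3 probe sets. The dimmer ones started at 3.82 and 3.73 in normal glucose, closer to the 25th percentiles of the arrays (3.26 to 3.32), and rose 3.61-fold and 3.53-fold. The rise of the synthase was therefore seen in each of its probe sets.

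UGP2, which supplies the UDP-glucose that the synthase uses, was at 10.35 and 10.31 in normal and at 10.85 and 10.81 in high glucose. The groups did not overlap, and the rise was 1.41-fold (log2 difference 0.50, SE 0.0835, 2 arrays a group, limma's adjusted p = 0.00524). It fell short of the 1.5-fold threshold of the methods. UGP2 has a single probe set of its own, as have GBE1, PYGL and PYGM.

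GYG1, the protein primer on which the first chain of a glycogen particle begins, moved the other way. Its brightest probe set was at 9.05 and 9.27 in normal and at 8.57 and 8.76 in high glucose. The 2 groups did not overlap, but the arrays within each group differed more than for any other of the 9 genes (SD 0.158 and 0.137). The level was lower by a factor of 1.41 (log2 difference -0.49, SE 0.120, adjusted p = 0.0221 from limma). Without normal glucose replicate 2, high glucose replicate 1 or high glucose replicate 2 the call ended (log2 difference -0.38, -0.40 and -0.59, adjusted p = 0.129, 0.136 and 0.0579 from limma). The other GYG1 probe sets had a smaller spread and lay lower, with factors of 1.49 and 1.26 (adjusted p = 0.00417 and 0.0303 from limma on all probe sets).

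GBE1, which transfers short chain ends to make branches, was at 9.33 and 9.32 in normal and at 8.40 and 8.54 in high glucose. Both high glucose arrays lay below both normal glucose arrays. It was lower by a factor of 1.81, a log2 difference of -0.86 (SE 0.0917, 2 arrays a group, limma's adjusted p = 0.000901). The gene of the enzyme that lengthens the chains and the gene of the one that branches them thus changed in opposite directions, by 2.02 and -0.86 on the log2 scale.

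The targeting subunits of protein phosphatase 1 among the chosen genes were both higher, PPP1R3B by more than PPP1R3C. Other targeting subunits, PPP1R3D, PPP1R3E and PPP1R3F, were lower, as given below. PPP1R3B, the form known from liver, was at 6.84 and 6.83 in normal and at 7.89 and 7.94 in high glucose. Its rise of 2.12-fold (log2 difference 1.08, SE 0.0833, 2 arrays a group, limma's adjusted p = 0.000257) was many times the spread within either group. Its dimmer probe set, at 4.40 on average in normal glucose, rose 1.69-fold. PPP1R3C, also called protein targeting to glycogen, was at 6.40 and 6.31 in normal and at 6.68 and 6.79 in high glucose. The groups lay apart by less than for PPP1R3B, and the difference was 1.30-fold (log2 difference 0.38, SE 0.0921, adjusted p = 0.0215 from limma). Leaving out normal glucose replicate 1, normal glucose replicate 2, high glucose replicate 1 or high glucose replicate 2 ended the call of PPP1R3C (adjusted p = 0.0713, 0.115, 0.06 and 0.113 from limma). The second probe set of PPP1R3C gave 1.18-fold (adjusted p = 0.126).

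Of the 3 phosphorylase isoforms, products of separate genes that catalyse the same reaction, PYGL was higher, PYGB was lower and PYGM was too dim to be read. PYGL was at 7.69 and 7.76 in normal and at 9.40 and 9.35 in high glucose. It rose 3.14-fold, or 1.65 on the log2 scale (SE 0.0852, 2 arrays a group, limma's adjusted p = 5.83e-05), and 4.95% of all genes changed by at least as much. PYGB was at 8.25 and 8.29 in normal and at 7.34 and 7.38 in high glucose. It was lower by a factor of 1.88, a log2 difference of -0.91 (SE 0.0842, 2 arrays a group, limma's adjusted p = 0.000524). For either gene the distance between the groups was far larger than the distance between the arrays of a group.

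PYGB was read by 5 probe sets, and each was lower, by factors of 1.88 to 2.01. The 2 brightest gave identical values on 3 of the 4 arrays and differed by 0.00113 on the other, so they count as 1 reading. PYGM was at 2.92 and 2.86 in normal and at 2.93 and 2.91 in high glucose, under the 25th percentile of every array. The groups overlapped, and the log2 difference was 0.03 (95% interval -0.18 to 0.24, adjusted p = 0.826 from limma). At this signal, a change of the muscle isoform could not be read from the arrays.

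**Figure D2:**
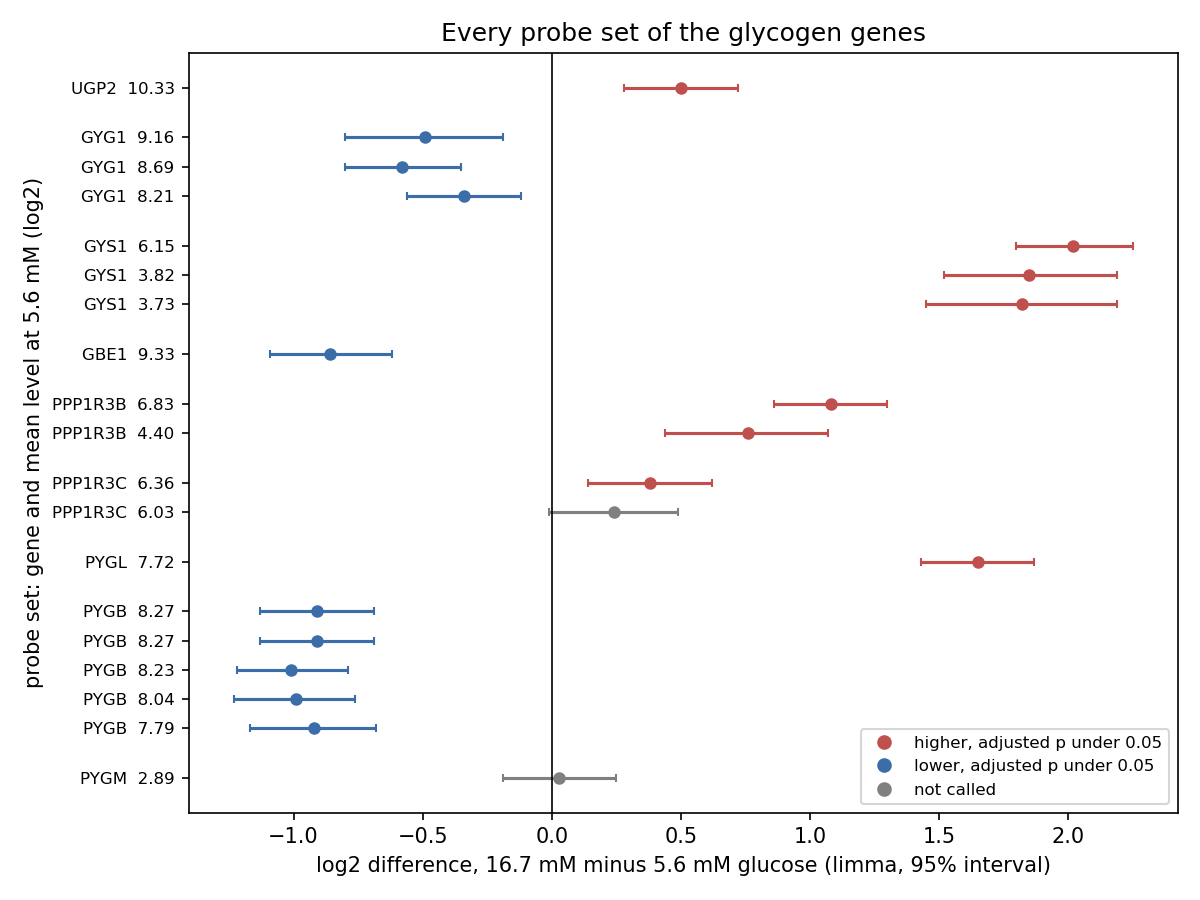
Log2 difference between high and normal glucose for each of the 19 probe sets of the 9 genes, with its 95% interval from limma (n = 2 arrays per group). Each row gives the gene and the mean level in normal glucose, and colours mark an adjusted p under 0.05 over all probe sets. Probe sets of 1 gene lie on the same side of 0.

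With every probe set tested separately, 8 of the 19 were higher and 9 were lower, against 15.1% and 20.4% of 49293 probe sets. The 2 that did not pass were that of PYGM and the dimmer one of PPP1R3C. Probe sets of 1 gene share its RNA and are not replicates. The direction was the same over the probe sets of each of the 5 genes with more than 1, GYS1 (log2 difference 1.82 to 2.02), PYGB (-1.01 to -0.91), GYG1 (-0.58 to -0.34), PPP1R3B (0.76 to 1.08) and PPP1R3C (0.24 to 0.38).

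The unequal change of the phosphorylases was also measured within each array, where any scaling of the whole array cancels. The log2 value of PYGL minus that of PYGB was -0.55 and -0.54 in normal and 2.06 and 1.97 in high glucose. The difference between the genes thus shifted by 2.56 towards PYGL, or 5.90-fold. The arrays of a group differed by far less than this, but with 2 arrays per group the two-sided exact permutation p was 0.333, the smallest it can be. The same measure for GYS1 minus PYGL was -1.50 and -1.65 in normal and -1.22 and -1.19 in high glucose, a shift of 0.37 (two-sided exact permutation p = 0.333). This smaller shift depended on the probe sets, and was 0.25 or 0.12 when GYS1 and PYGL were read by the mean or the median of their probe sets.

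**Figure D3:**
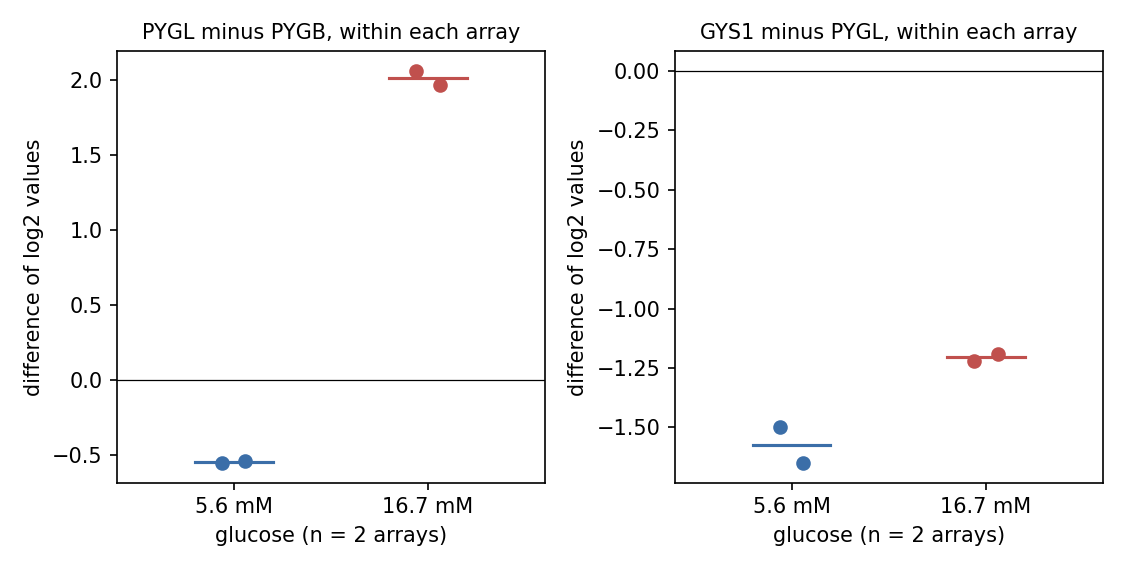
Difference of log2 values between a pair of genes within each array, PYGL minus PYGB on the left and GYS1 minus PYGL on the right, with the group mean as a line (n = 2 arrays per group). Only the shift between the groups is comparable, since levels of different probe sets are not. It was 2.56 on the left and 0.37 on the right.

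Other genes of glycogen handling came from a textbook list, written with earlier results of these data known, of which 24 were analysed. Of the 24, 15 did not pass, 4 rose and 5 fell, shares near the 15.5% and 22.2% of all genes, with a median log2 difference of 0.0486.

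Of the 5 other genes on the building side, the phosphoglucomutase family among them, 3 were higher, where 15.5% of all genes were. The calls of PGM1 and PGM2 among these ended when single arrays were left out, as given below. PGM2L1, which makes the glucose bisphosphate that phosphoglucomutases need, was at 4.45 and 4.76 in normal and at 6.46 and 6.45 in high glucose. Its groups lay well apart, and it rose 3.60-fold (log2 difference 1.85, SE 0.124, 2 arrays a group, limma's adjusted p = 0.000155), with 4 of 4 probe sets higher (log2 difference 0.60 to 1.85). PGM1, the main phosphoglucomutase between glucose 6-phosphate and glucose 1-phosphate, was 1.28-fold higher and PGM2, which acts mainly on pentose phosphates, 1.37-fold (adjusted p = 0.0187 and 0.0112 from limma). The liver synthase GYS2 lay under the 25th percentile of each of the 4 arrays, and the second glycogenin GYG2 had a log2 difference of 0.25 (95% interval -0.20 to 0.71). Neither passed.

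Of the regulators on the list, 1 of 2 synthase kinases, 1 of 5 subunits of phosphorylase kinase and 3 of 8 subunits of protein phosphatase 1 were lower, where 22.2% of all genes were, and 1 of the laforin and malin pair was higher. The calls of PPP1R3D, PPP1R3E and NHLRC1 among these ended when single arrays were left out. GSK3A, a kinase that inactivates glycogen synthase, was at 10.80 and 10.79 in normal and at 9.93 and 9.89 in high glucose. It was lower by a factor of 1.85 (log2 difference -0.89, SE 0.0836, 2 arrays a group, limma's adjusted p = 0.000563), and 3 of its 3 probe sets were lower. Its relative GSK3B had a log2 difference of 0.17 (95% interval -0.05 to 0.38, adjusted p = 0.193). PHKA1, the muscle regulatory subunit of phosphorylase kinase, which activates phosphorylase, was lower by a factor of 1.69 (adjusted p = 0.0015 from limma). The other 4 subunits of this kinase did not pass, and PHKA2, the liver form, was 0.779-fold (adjusted p = 0.0604).

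Of the other targeting subunits of protein phosphatase 1, PPP1R3F, PPP1R3E and PPP1R3D were lower, with log2 differences of -0.93, -0.83 and -0.59 (adjusted p = 0.00216, 0.0236 and 0.018 from limma). The value of PPP1R3E rested on its normal glucose arrays, at 4.61 and 5.25, and its log2 difference was -1.16 without normal glucose replicate 1 and -0.51 without normal glucose replicate 2. PPP1R3A was dim on each array, below the 25th percentile, so that no change could be read. PPP1R3G and the catalytic subunits PPP1CA, PPP1CB and PPP1CC had log2 differences of 0.06, 0.18, 0.11 and -0.12, none of which passed. NHLRC1, the ubiquitin ligase malin, was 1.46-fold higher (adjusted p = 0.0189 from limma) by its brighter probe set, while the dimmer one did not pass, and its partner EPM2A, the glycogen phosphatase laforin, was 0.802-fold (adjusted p = 0.0603). The lysosomal glucosidase GAA and the glycogen-binding STBD1 did not pass at 0.964-fold and 1.27-fold. STBD1 was read by a dim probe set of its own, since the brighter ones also match a joint transcript with a neighbouring gene. Leaving out normal glucose replicate 1, normal glucose replicate 2 or high glucose replicate 1 ended the calls of PGM1, PGM2, NHLRC1 and PPP1R3D (adjusted p = 0.0508 to 0.132), that of PGM1 ended without high glucose replicate 2 too (0.069), and PPP1R3E lost its call without high glucose replicate 1 or 2 (0.141 and 0.143). The calls of PGM2L1, GSK3A, PHKA1 and PPP1R3F held with any 1 array left out. By the methods' t-test with adjustment, PHKA1 and PPP1R3F lost their calls (adjusted p = 0.0524 and 0.0948), and PGM2L1 and GSK3A kept theirs (0.047 and 0.0225). PPP1R3F was read by 1 dim probe set, at 4.62 and 4.35 in normal and at 3.64 and 3.48 in high glucose. NHLRC1 (mean 4.48 in normal and 5.02 in high glucose) and PPP1R3E (4.93 and 4.10) were dim too. Their means lay near or under the array medians of 5.01 to 5.07.

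**Figure D4:**
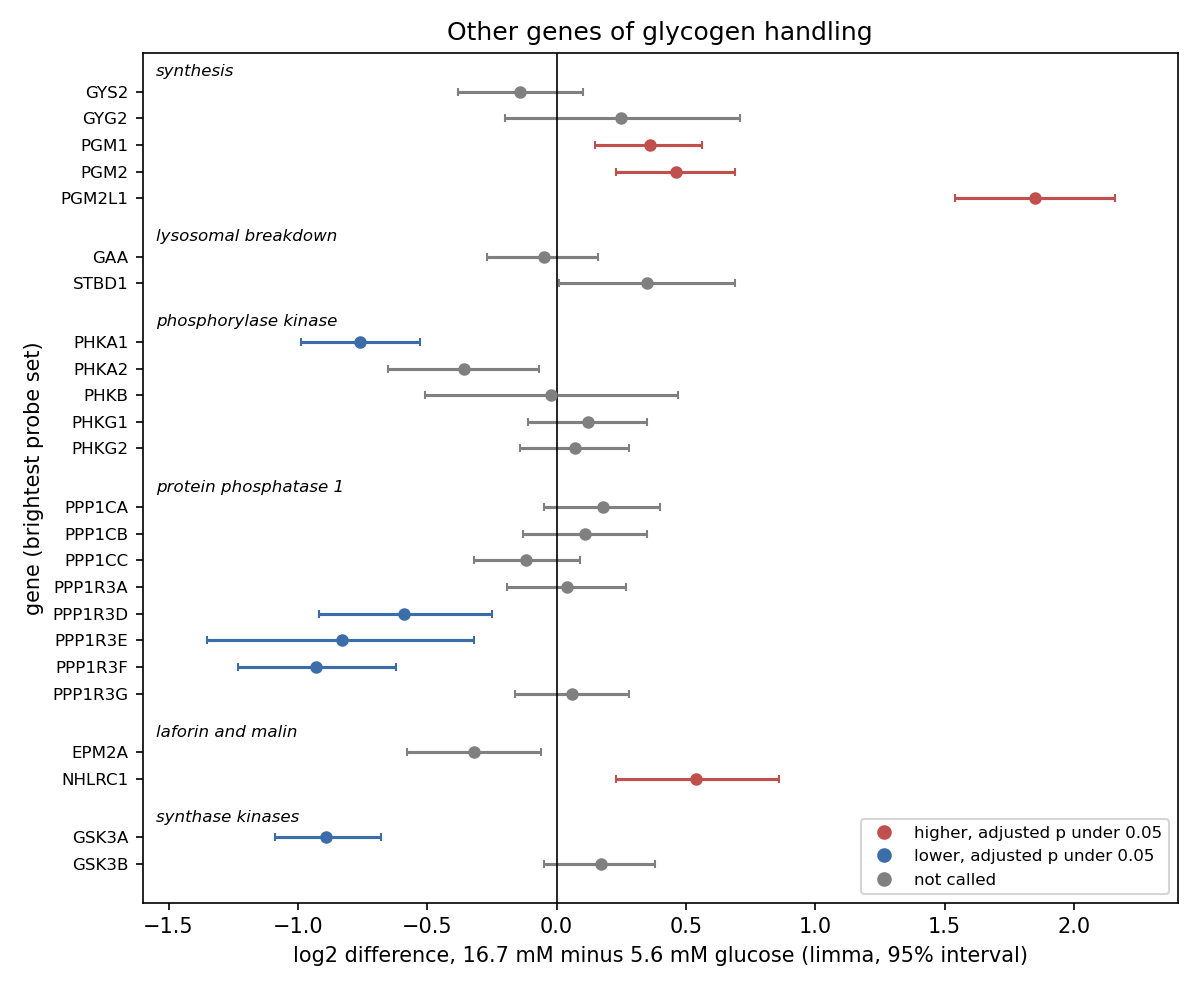
Log2 difference between high and normal glucose for 24 other genes of glycogen handling, grouped by role, with 95% intervals from limma (n = 2 arrays per group). Colours mark an adjusted p under 0.05 over all genes. The 4 higher genes include PGM2L1 at 1.85, and the 5 lower ones lie between -0.93 and -0.59.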

How the data were processed

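RNA of UM1 cells in normal or high glucose was measured on 4 Affymetrix arrays, whose number limits the precision. The authors used GCOS and RMA and deposited log2 values per probe set, background corrected and normalised between arrays. The versions of these tools are not given. According to the methods the array was a Human Genome U133 Plus 2.0, but the probe set identifiers are those of the PrimeView array.

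Of 49395 probe sets, 44988 had 1 gene, 1832 had several, 2473 were unnamed here and 102 were controls, which were left out. The probe set with the highest mean stood for each of 18132 genes. Groups were compared with limma 3.58.1 in R 4.3.3, which was tested on simulated data, and p-values were adjusted by the Benjamini-Hochberg method. All probe sets that match 1 of the 9 genes alone are reported. Of the textbook list of other glycogen genes, the 4 with the largest called rise, the 4 with the largest called fall and any behind a count of 5 or fewer were to be described, and the remaining genes named were added after their values were seen. The members and lists were chosen with earlier results of these data known. Promoters are from RefSeq (GRCh38.p14), matched by symbol.

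The alternatives were the mean or median of the probe sets, no _x_at probe sets, no dim genes, a floor at the 25th percentile, further quantile normalization, centring on the median, limma-trend (robust), the t-test of the methods, a replicate block, other thresholds (adjusted p under 0.01, and those of the methods) and each array left out.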

Additional observations from a re-analysis of the deposited data

How the results depend on the processing

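The calls of GYS1, GBE1, PYGL, PYGB and PPP1R3B held under all 16 alternatives, with log2 differences of 1.77 to 2.07, -0.93 to -0.79, 1.61 to 1.70, -1.01 to -0.85 and 0.92 to 1.13. UGP2 kept its call except at the thresholds of the methods. PPP1R3C held in 8 of 16 and GYG1 in 10 of 16. No direction of a called gene was reversed. With the replicate block, the count of higher glycogen genes was 4, since PPP1R3C had an adjusted p of 0.0548 (limma). The labels number the arrays but do not say that a number marks a shared culture, and same-numbered deviations correlated at -0.00457 over genes. With the block no other call among the 9 genes changed.

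At the thresholds of the methods, 3 of the 9 genes were higher and 2 lower, against 10.6% and 13.4% of all genes. For the other glycogen genes, 1 was higher and 5 were lower at these thresholds. At an adjusted p under 0.01, 1 was higher and 3 were lower, and by the methods' t-test with adjustment 2 were higher and 2 lower. That test called 4 of the 19 probe sets higher and 6 lower. Without 1 array, 1 to 3 of the other genes were higher and 3 to 5 lower, and 5 to 7 of the 19 probe sets were higher. The count of lower other genes reached 7 with a floor, with centring on the median and with the median of probe sets. In fits without 1 array the lone array of a group was assumed to vary like the other group. Shares over all genes or probe sets were taken only for the main fits and the thresholds of the methods. Counts under the remaining alternatives therefore have no such share beside them. The causes of these changes were not tested. Signal limits PYGM, which lay under the 25th percentile throughout, and dim probe sets can understate a change.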
